A study of Mus musculus with 6 samples.

Results

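The cells described here were barcodes from mouse spinal cord that held RNA of the surrogate light chain genes together with RNA of B-lineage genes. A barcode was taken when it had at least 200 detected genes, at most 20% of its unique molecular identifiers (UMIs) from mitochondrially encoded genes, at least 1 UMI summed over Vpreb1, Vpreb3, Igll1 and Dntt, and at least 1 UMI summed over Cd79a, Cd79b, Ighm and Ebf1. The cells were thus chosen by their UMI counts of these 8 genes. This rule found 207 cells among 3360 retained barcodes, or 6.16%. The 6 libraries were made by Drop-seq, which captures single cells in droplets with barcoded beads, and fell into 3 groups of 2. SOD1-Nec cords carried the SOD1-G93A genotype, a mutant superoxide dismutase used as a model of amyotrophic lateral sclerosis, and received Necrostatin-1s, a drug that blocks the kinase activity of RIPK1. SOD1-Veh cords carried the same genotype and received vehicle. WT-Veh cords were wild type and received vehicle. Nothing in the sources used here gives age, the promoter that drives the mutant gene or the number of animals per library. All cords went through enzymatic digestion, removal of myelin and a density gradient. Libraries held between 1508618 and 1767205 UMIs, and the cells described here had a median of 593 UMIs and 391 genes.

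B cells are built in the bone marrow of adult mice in steps marked by the rearrangement of antibody genes. A pro-B cell cuts and joins its heavy chain genes with the RAG1 and RAG2 enzymes and, with the Dntt enzyme, adds bases at the joints. A pre-B cell then pairs the new heavy chain (Ighm) with a surrogate light chain, made of VpreB (Vpreb1) and lambda5 (Igll1), and signals through the receptor partners Cd79a and Cd79b before it divides and rearranges a true light chain (Igkc or Iglc). Vpreb3 is related to VpreB in sequence, stays inside the cell and lasts into later stages than Vpreb1 and Igll1.

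The promoters of the 3 genes that mark these cells are shown because the cells turned out to hold them very unequally. The sequences are RefSeq's for build GRCm38.p6, 250 bases upstream of each gene's start, read 5′ to 3′ on the strand of the gene, at chr10:75948050-75948299 on the plus strand for Vpreb3, chr16:16869256-16869505 on the minus strand for Vpreb1 and chr16:16863986-16864235 on the minus strand for Igll1. Capitals mark matches to the octamer ATGCAAAT, bound by POU2F factors, or to the E-box CAGGTG, bound by E proteins such as the product of Tcf3, each searched on both strands.
Vpreb3: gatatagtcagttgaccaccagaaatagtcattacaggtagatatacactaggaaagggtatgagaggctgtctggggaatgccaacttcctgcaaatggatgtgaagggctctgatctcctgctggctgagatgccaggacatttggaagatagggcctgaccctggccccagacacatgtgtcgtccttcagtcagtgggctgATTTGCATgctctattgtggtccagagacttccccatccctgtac
Vpreb1: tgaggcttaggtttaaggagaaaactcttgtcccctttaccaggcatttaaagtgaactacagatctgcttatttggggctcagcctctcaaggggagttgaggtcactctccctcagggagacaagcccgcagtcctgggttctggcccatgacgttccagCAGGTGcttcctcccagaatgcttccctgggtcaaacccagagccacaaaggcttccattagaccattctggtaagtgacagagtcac
Igll1: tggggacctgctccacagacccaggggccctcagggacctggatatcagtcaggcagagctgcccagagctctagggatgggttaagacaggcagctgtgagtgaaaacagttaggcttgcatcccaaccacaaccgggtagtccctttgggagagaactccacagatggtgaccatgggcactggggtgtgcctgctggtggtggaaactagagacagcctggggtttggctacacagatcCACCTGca
The Vpreb3 promoter held an octamer on its reverse strand, 45 bases before the start, and no E-box of these letters. The Vpreb1 promoter held an E-box 88 bases before the start and the Igll1 promoter held it 8 bases before the start, on the reverse strand, and neither held the octamer. None of the 3 held the EBF1 motif, searched as TCCC, any 2 bases and GGGA. Of 32851 promoters of the same length, 1.60% held the octamer, 17.2% the E-box and 0.779% the EBF1 letters. The motifs do not overlap each other in these windows, and a match is a description of letters only.

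The label of a precursor with surrogate light chain was checked against its marker genes, which are the genes of the rule and are therefore described without a test. Vpreb3 carried the rule: 201 of the 207 cells had a Vpreb3 UMI, with 529 UMIs in all and up to 13 in a cell, and 182 cells entered through Vpreb3 alone. The surrogate light chain genes proper were rare. Igll1 was seen in 21 cells (58 UMIs) and Vpreb1 in 15 cells (49 UMIs); 24 cells had at least 1 of the pair, 12 had both and 18 of the 24 also had Vpreb3. Dntt was seen in 8 cells. On the B-lineage side, Ighm was seen in 168 cells, Cd79b in 136, the transcription factor Ebf1 in 105 and Cd79a in 36. Most of these cells are thus named by Vpreb3 and not by a complete surrogate light chain, and they are called Vpreb3+ B-lineage cells below, a name that holds for 201 of 207.

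**Figure D1:**
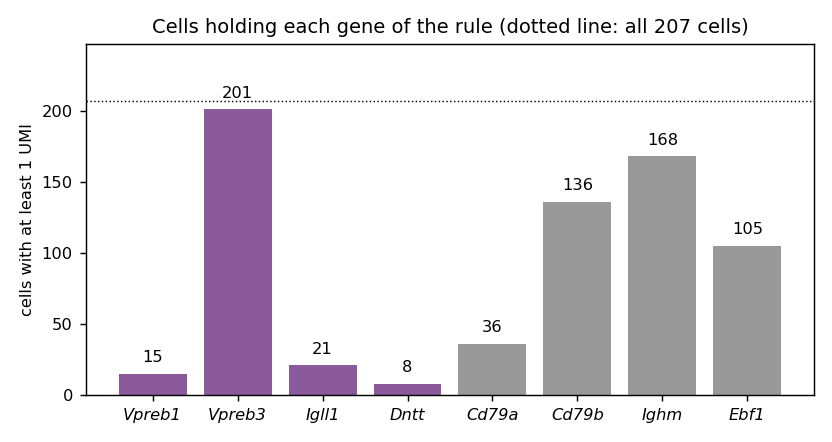
Number of the 207 cells with at least 1 UMI of each gene of the rule (vertical axis, cells), with surrogate-side genes in purple and B-lineage genes in grey. Vpreb3 is in 201 cells, against 21 for Igll1 and 15 for Vpreb1.

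The cells held 91.8% of the Vpreb3 UMIs of all retained barcodes, a share that the rule itself largely sets. By library the cells had 84 and 151 Vpreb3 UMIs in SOD1-Nec, 80 and 105 in SOD1-Veh, and 73 and 36 in WT-Veh. Clusters not led by B-lineage genes gave the background of the rule, in which free RNA and the cells' own RNA were not told apart. A surrogate-side UMI was present in 0.563% of the barcodes of a microglial cluster led by P2ry12 (2 of 355, median 447 UMIs) and in 0 of 182 of a neutrophil cluster led by Retnlg (median 604.5 UMIs; exact 95% upper bound 2.01%). It was not equally low in every cluster. Over the 18 clusters not led by B-lineage genes the share lay between 0 and 8.65%. The highest was that of 266 barcodes led by Hba-a2, the cluster that held 15 of the cells described here. In 57 barcodes led by Nnat and Ccdc153 it was 7.02% (4 barcodes, all with Vpreb3; exact 95% interval 1.95 to 17.0%; median 515 UMIs). A B-lineage UMI was more widespread: it was present in 9.58% of the microglial cluster and 3.30% of the neutrophil cluster, and in 1.75 to 22.6% over the 18 clusters. In a cluster led by Ly6c1 and Flt1 it was present in 16.1%, with Ebf1 alone in 14.0%.

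The rule sits low on a scale of counts. Of the 207 cells, 85 had 1 surrogate-side UMI, 44 had 2 and 78 had 3 or more, with a maximum of 30. Among these same 207 cells, 33 had 1 B-lineage UMI and 21 had just 1 UMI on each side. Just outside the rule, 37 retained barcodes had a surrogate-side UMI and no B-lineage UMI. Near the gene minimum, 33 cells had 200 to 249 genes and 19 barcodes that met the gene rule had at least 150 but under 200, and near the mitochondrial limit, 17 cells had 15 to 20% and 5 barcodes had 20 to 25%. Of 21877 distinct barcodes, 25 occurred in more than 1 library; 1 of the cells had its barcode in another library, where it was not retained. The doublet caller Scrublet marked 29 retained barcodes, none of them among the 207.

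When all retained barcodes were clustered without the 8 genes of the rule, 157 of the 207 cells fell into 1 cluster of 251 barcodes. Its leading genes by fold were Vpreb3, Arl5c, Fam129c, Fcrla, Pafah1b3, Myl4, Cd79b, Pax5, Spib and Cd72. A further 29 cells fell into a cluster of 182 led by Igkc, Ms4a1 and Cd74, genes of mature B cells, and 21 fell outside these B-led clusters. The outside cells were unevenly spread over libraries, with 4 and 15 in SOD1-Nec, 1 and 1 in SOD1-Veh, and 0 and 0 in WT-Veh. The comparisons below were therefore also run on the B-led clusters alone.

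The cells differed among themselves along the genes of B-cell maturation. To set shares of cells with a UMI side by side, each cell was thinned to 500 UMIs and shallower cells were left out, which kept 130 of the 207. The shares are descriptions, since the subsets were formed from the same cells. Of 84 deep cells in the Vpreb3-led cluster with Vpreb3 as their only surrogate-side gene, 21 had a UMI of Il7r, the receptor for the growth factor IL-7 that B precursors of the mouse need. Sox4, a transcription factor of early B cells, was seen in 41 of the 84, Cd24a, a surface protein high on immature B cells, in 54, and Rag1 in 8. The light chain gene Igkc was seen in 45 of the 84. Cd74, the chaperone of MHC class II, was seen in 10, and the mature B-cell surface gene Ms4a1 in 8. The same cluster held 21 deep cells with a B-lineage UMI and no surrogate-side UMI. Of these 21, Sox4 was seen in 8, Cd24a in 10, Rag1 in 3 and Igkc in 9, so these genes were not particular to its Vpreb3+ cells. Il7r was seen in 1 of the 21, Cd74 in 9 and Ms4a1 in 4.

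The 29 Vpreb3+ cells of the Igkc-led cluster had another profile, with 17 cells deep enough. Cd74 was seen in 17 of 17, Ly6d in 15, Igkc in 13, Ms4a1 in 13, the lambda chain gene Iglc2 in 11 and the class II gene H2-Aa in 9. Il7r, Rag1, Rag2 and the proliferation gene Mki67 were seen in 0 of 17, which allows a share of up to 17.6%, and, before thinning, in 0 of 29. Cells of the same cluster without a surrogate-side UMI had Cd74 in 51 of 53, Igkc in 41 of 53, H2-Aa in 37 of 53 and Ms4a1 in 24 of 53. Vpreb3 RNA was thus present in cells at both ends of this range.

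The 25 cells with Vpreb1, Igll1 or Dntt were the deepest subset, at a median of 1099 UMIs. Of the 21 deep ones, 11 had a UMI of a cell division gene, against 27 of 84 for cells with Vpreb3 alone in the Vpreb3-led cluster. Il7r was seen in 4, Mki67 in 4, Igkc in 6 and Sox4 in 4 of the 21. Cd74, H2-Aa, Ms4a1 and Iglc2 were seen in 0 of the 21, which allows a share of up to 14.3%, and before thinning Cd74 was seen in 1 and H2-Aa in 2 of 25. Markers of the earliest progenitors were at or near 0 in all 207 cells: Kit and Flt3 had no UMI and Cd34 was seen in 1 cell.

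**Figure D2:**
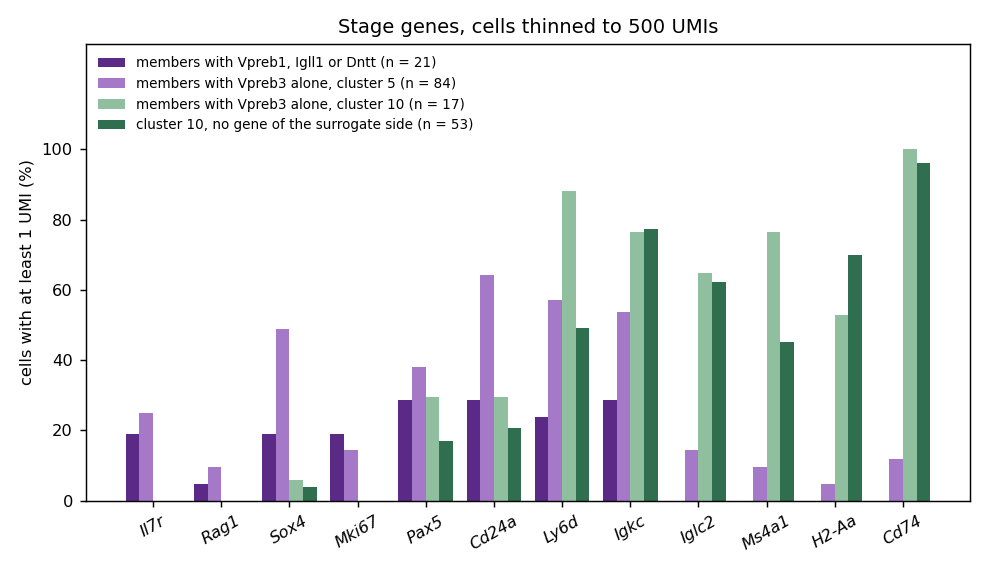
Percent of cells with at least 1 UMI of each gene after thinning to 500 UMIs (vertical axis), in 4 sets of cells. Il7r, Rag1 and Mki67 are present in the first 2 sets and at 0 in both sets of cluster 10, the Igkc-led cluster, where Cd74 reaches 100% and 96.2%.

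To find which other genes set these cells apart from their nearest kin, UMI counts were summed per library over the 207 cells and over the 458 barcodes with a B-lineage UMI and no surrogate-side UMI. The sums were compared with edgeR's quasi-likelihood test, with the library as a block and without the 8 genes of the rule. Levels below are in edgeR's CPM, counts of these sums relative to library size with TMM scaling. Of 726 tested genes, 157 or 21.6% passed a Benjamini-Hochberg adjusted p of 0.05, with 73 higher (10.1%) and 84 lower (11.6%). The other B-lineage barcodes were a mixture: 73 lay in the Vpreb3-led cluster, 125 in the Igkc-led cluster and 260 outside both. Marker genes of some other cell types were lower in the Vpreb3+ sums, namely all 5 tested neutrophil genes, all 3 microglial genes and all 3 monocyte genes. None of these reached the low-count filter given below on the Vpreb3+ sums alone. Of 5 tested erythroid and 4 tested astrocyte genes none passed, and of 4 tested oligodendrocyte genes 1 was higher and 1 lower. The microglial list took 0.0479 to 0.105% of the UMIs of Vpreb3+ cells and 0.275 to 1.21% of those of the other B-lineage barcodes. The test took genes that reached a low-count filter of about 197 CPM in at least 6 of the 12 sums, and many genes did so through the sums in which they were high. Of the 73 higher genes, 12 reached it on the other B-lineage sums alone, and of the 84 lower genes, 20 reached it on the Vpreb3+ sums alone. Counts over the lists, above and below, are therefore descriptions of the genes that were tested. For the mixture of cells, the same test was also run within the B-led clusters alone, where 20 of 245 genes were higher (8.16%) and 13 lower (5.31%), 33 or 13.5% in all. These clusters were formed in the same cells, without the genes of the rule alone. The Vpreb3-led cluster held 157 of the 207 cells, and the Igkc-led cluster held most of the others in that test. Differences there in the leading genes of either cluster are thus partly set by the clustering.

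Several early B-lineage genes were higher in the Vpreb3+ cells. Of 8 tested members of a list of early surface and stage genes, 7 were higher, with a median log2 difference of 1.67 against -0.03 over all tested genes, and 2 of the 7 (Cd24a and Ly6d) reached the filter on the other B-lineage sums alone. In the B-led clusters 3 of 6 tested members were higher (Smarca4, Cd24a and Chchd10), with a median of 1.06 against -0.02 over all genes tested there. Il7r stood at 502 and 602 CPM in the Vpreb3+ cells of SOD1-Nec, 576 and 251 in SOD1-Veh, and 492 and 763 in WT-Veh. In the other B-lineage barcodes it stood at 35 and 54.4 CPM in SOD1-Nec, 33.3 and 19.0 in SOD1-Veh, and 15 and 91.1 in WT-Veh. The Vpreb3+ sums all lay above the others, and the log2 difference was 3.66 (SE 0.33, edgeR adjusted p = 3.2e-06, higher in 6 of 6 libraries). Il7r had 90 UMIs in the Vpreb3+ cells and 16 in the others, entered the test through the Vpreb3+ sums, and was too low to be tested within the B-led clusters. Smarca4, the motor of a chromatin remodelling complex, averaged 1360 ± 259 CPM in Vpreb3+ cells and 263 ± 179 CPM in the others (SD, n = 6 libraries each), a log2 difference of 2.52 (SE 0.25), and it was also higher within the B-led clusters (1.67, SE 0.27, edgeR adjusted p = 0.00095). Cd24a averaged 1571 ± 278 and 502 ± 207 CPM, a log2 difference of 1.68, and 1.19 within the B-led clusters (edgeR adjusted p = 0.0034). Tifa, an adaptor of NF-kB signalling, was higher by 2.26 over all cells, and its difference of 1.00 within the B-led clusters did not pass (SE 0.32, edgeR adjusted p = 0.053).

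Other genes named by the size of their difference included Pafah1b3, a subunit of an acetylhydrolase, and Arl5c, a small GTPase. Pafah1b3 averaged 658 ± 148 CPM in Vpreb3+ cells and 51.6 ± 8.0 CPM in the others, a log2 difference of 3.60 (SE 0.27) that was 2.15 (SE 0.31) within the B-led clusters. Arl5c averaged 952 ± 356 and 118 ± 13.3 CPM, with log2 differences of 2.91 and, within the B-led clusters, 1.40. Both genes are among the leading genes of the Vpreb3-led cluster, so their differences within the B-led clusters are partly set by the clustering. Mzb1, a helper of antibody folding, and Lrmp, a membrane protein of lymphocytes, were higher by 2.38 and 2.42 on the log2 scale and were not tested within the B-led clusters. The highest other B-lineage sums of Pafah1b3, Arl5c, Mzb1 and Lrmp stood at 65.2, 133, 120 and 171 CPM, under the filter. These genes thus entered the test through the Vpreb3+ sums.

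Of 9 tested B-lineage transcription factors, 6 were higher and none lower, against 10.1% higher and 11.6% lower over all tested genes. The median log2 difference of the 9 was 1.79, against -0.03 over all tested genes. None of the 6 reached the filter on the other B-lineage sums alone. Pax5, which holds cells to the B lineage, averaged 1066 ± 549 CPM in Vpreb3+ cells and 246 ± 147 CPM in the others (log2 2.04, SE 0.35), Spib, an ETS factor of B cells, was higher by 2.23, Bcl7a by 2.47 and Myb, a factor of precursor cells, by 1.79. Within the B-led clusters Pax5 differed by 0.57 (SE 0.30, edgeR adjusted p = 0.21), which did not pass. Sox4 differed by 1.36 there (SE 0.46, edgeR adjusted p = 0.064), and the other members were too low to be tested. Of 6 genes of antigen receptor signalling, Cd72, Syk and the adaptor Blnk were higher, by 2.26, 1.68 and 1.47 on the log2 scale, again with none over the filter on the other B-lineage sums alone. Neither of the 2 that could be tested within the B-led clusters passed there: Cd72 differed by 0.77 (SE 0.25, edgeR adjusted p = 0.053) and Syk by 0.59 (SE 0.31, adjusted p = 0.21).

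Genes of MHC class II presentation fell. All 4 tested class II genes were lower, against 11.6% of all tested genes, and they were lower by more when both sets came from the B-led clusters. All 4 are among the leading genes of the Igkc-led cluster, so the wider difference there is partly set by the clustering. H2-Aa averaged 271 ± 65.0 CPM in Vpreb3+ cells and 1002 ± 484 CPM in the others, with a highest Vpreb3+ library at 321 CPM and a lowest other library at 513 CPM. Its log2 difference was -1.80 (SE 0.26), and -2.88 (SE 0.23, edgeR adjusted p = 3.2e-06) within the B-led clusters. Cd74 differed by -1.04 and, within the B-led clusters, by -2.37. The list of mature B genes gave both directions. Of its 8 tested members, 4 were lower (Klf2, Ly86, Plac8 and Cd52) and 2 were higher, Fcrla by 1.89 (SE 0.25, edgeR adjusted p = 9.3e-05) and Cd37 by 0.87 (SE 0.22, adjusted p = 0.0098). In the B-led clusters 3 of 5 were lower (Ms4a1, Klf2 and Cd52) and none higher, with Fcrla at 0.32 and Cd37 at -0.27. Klf2, a factor that keeps mature lymphocytes resting and recirculating, was lower in both fits, with log2 differences of -1.87 and -1.88. Ms4a1 and Iglc2, also leading genes of the Igkc-led cluster, were lower within the B-led clusters alone, with log2 differences of -1.43 and -1.11.

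Light chain and surface genes gave no single direction. Igkc averaged 2088 ± 760 CPM in Vpreb3+ cells and 2687 ± 3899 CPM in the others, with 10516 CPM in the other B-lineage barcodes of the second SOD1-Nec library. Its log2 difference was 0.50 (SE 0.56, edgeR adjusted p = 0.61) over all cells and -1.21 (SE 0.50, adjusted p = 0.12) within the B-led clusters. Ly6d, a surface protein of lymphoid cells from the earliest committed stage on, was higher over all cells (log2 1.49, SE 0.27) and differed by -0.09 (SE 0.23) within the B-led clusters.

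Chromatin proteins abundant in dividing cells were higher for 6 of 16 tested genes, and none was lower; 2 of the 6, Ptma and Stmn1, reached the filter on the other B-lineage sums alone. In the B-led clusters 4 of 9 were higher. Over all tested genes 10.1% were higher and 11.6% lower, and in the B-led clusters 8.16% and 5.31%. Ptma, a histone-binding protein, averaged 5411 ± 858 CPM in Vpreb3+ cells and 2732 ± 721 CPM in the others (log2 1.01, SE 0.19), and Hmgb1, a chromatin protein that also bends DNA for the RAG enzymes and stood in the list of V(D)J recombination, averaged 2902 ± 781 and 1203 ± 102 CPM (log2 1.24, SE 0.17). Both were also higher within the B-led clusters, at 0.96 and 1.34, where Hmgb2 (1.56), Tubb5 (1.40), Stmn1 and Tuba1b were higher too. Of 14 immediate-early and dissociation genes, 10 were lower, of which Jun alone reached the filter on the Vpreb3+ sums, with Fos at 77.0 ± 88.4 CPM in Vpreb3+ cells and 1874 ± 992 CPM in the others. Within the B-led clusters 3 genes of that list were tested and none passed. Of 28 tested genes of oxidative phosphorylation, 0 passed in either direction.

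**Figure D3:**
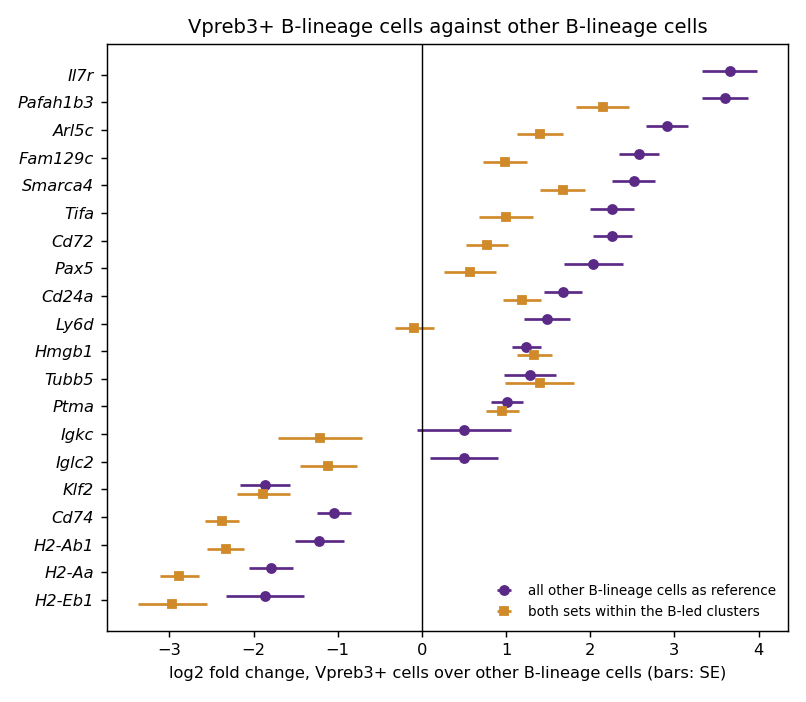
Log2 fold change of 20 genes in Vpreb3+ cells over other B-lineage cells (horizontal axis, bars SE), over all such cells (circles) and within the B-led clusters (squares; genes too low there have none). Class II genes lie further to the left within the B-led clusters, and Ly6d and Igkc cross 0.

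The share of Vpreb3+ cells was then compared between genotypes and treatments. They made up 6.05% (40 cells) and 8.31% (66 cells) of retained barcodes in SOD1-Nec, 6.77% (27) and 8.01% (35) in SOD1-Veh, and 4.66% (24) and 2.71% (15) in WT-Veh. All 4 SOD1 libraries lay above both WT-Veh libraries, at 7.28 ± 1.06% (SD, n = 4) and 3.68 ± 1.38% (n = 2), a difference of 3.60 percentage points. The exact two-sided permutation test over libraries gave p = 0.0667, the smallest this design allows. SOD1-Nec (7.18 ± 1.60%) and SOD1-Veh (7.39 ± 0.88%) overlapped. With at least 2 UMIs on each side of the rule the shares were 2.57% and 3.65% in SOD1-Nec, 5.01% and 5.03% in SOD1-Veh, and 2.33% and 1.81% in WT-Veh. The SOD1 libraries then lay 2.00 points above WT-Veh (exact permutation p = 0.133, n = 4 and 2), and SOD1-Nec less SOD1-Veh was -1.91 points, without overlap. With 2 libraries against 2, the exact permutation test cannot go below 0.333, and the labels do not say that libraries are separate animals, so these p-values measure the spread between libraries alone. Within the B-led clusters the shares were 5.45% and 6.42% in SOD1-Nec, 6.52% and 7.78% in SOD1-Veh, and 4.66% and 2.71% in WT-Veh, so that SOD1-Nec and SOD1-Veh did not overlap there either. The tables numbered 1 and 2 list different gene sets (18169 and 18650 genes), and SOD1-Veh lay above WT-Veh in both, as did SOD1-Nec.

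Among B-lineage barcodes, Vpreb3+ cells made up 30.3% and 36.3% in SOD1-Nec, 31.0% and 34.7% in SOD1-Veh, and 27.6% and 19.7% in WT-Veh. The SOD1 libraries again lay above both WT-Veh libraries, by 9.40 percentage points (exact permutation p = 0.0667, n = 4 and 2). With at least 2 UMIs on each side the difference was 4.92 points (exact permutation p = 0.267, n = 4 and 2), and SOD1-Nec 1 at 12.9% lay below WT-Veh at 13.8% and 13.2%. It was 15.5 points with barcodes thinned to 500 UMIs and 15.8 points at 400 or more genes. The order also depended on the barcodes outside the B-led clusters. Within those clusters the share averaged 47.2 ± 0.64% in SOD1-Nec, 47.9 ± 0.92% in SOD1-Veh and 51.9 ± 0.32% in WT-Veh. The SOD1 libraries there lay below WT-Veh, with a difference of -4.38 points (exact permutation p = 0.0667, n = 4 and 2).

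**Figure D4:**
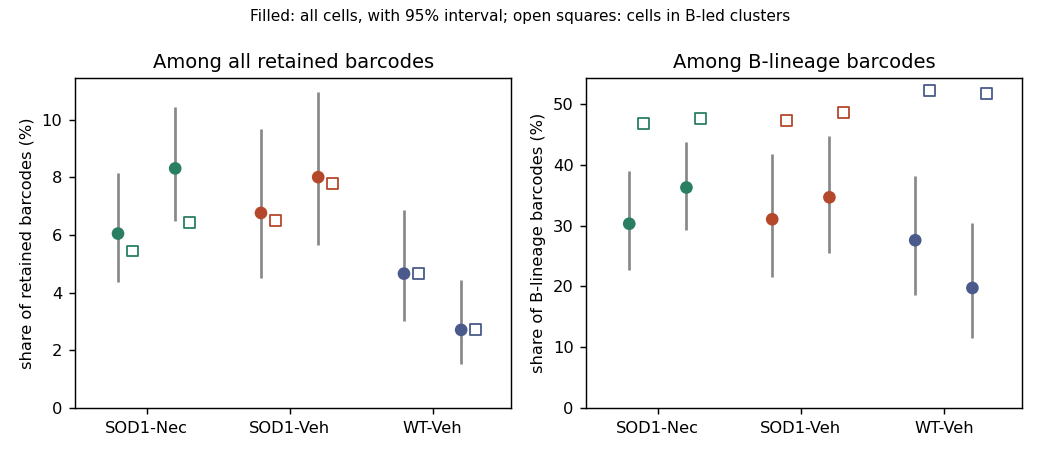
Share of Vpreb3+ B-lineage cells among retained barcodes (left, percent) and among B-lineage barcodes (right, percent), 1 point per library with its exact 95% binomial interval, which covers counting error only; open squares take cells of the B-led clusters alone. On the left the SOD1 libraries lie above WT-Veh with either set of cells, and on the right the order turns round for the squares.

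Cell division was read from a list of 32 genes in cells thinned to 500 UMIs. A UMI of the list was seen in 44 of 130 Vpreb3+ cells (33.8%) and in 63 of 249 other B-lineage cells (25.3%), against 11.3% of microglial and 9.60% of neutrophil cluster cells. Of those 249 cells, 175 lay outside the B-led clusters. The microglial and neutrophil clusters were the only clusters of other cell types in which the whole list was read. Mki67, a gene of the list, was seen in 16 of the 130 Vpreb3+ cells (12.31%). It was seen in 201 of 1677 retained cells outside both sets (11.99%), so Mki67 alone did not set the Vpreb3+ cells apart from these. Top2a was seen in 17 of 130 (13.08%) and 143 of 1677 (8.53%). Within the B-led clusters a UMI of the list was seen in 40 of 120 Vpreb3+ cells (33.3%) and in 15 of 74 others (20.3%). The order differed between these clusters. In the Vpreb3-led cluster such a UMI was seen in 37 of 103 Vpreb3+ cells (35.9%) and in 10 of 21 others (47.6%). In the Igkc-led cluster the counts were 3 of 17 (17.6%) and 5 of 53 (9.43%). In the SOD1-Nec libraries such a UMI was seen in 12 of 21 and 12 of 40 Vpreb3+ cells, in the SOD1-Veh libraries in 9 of 23 and 7 of 23, and in the WT-Veh libraries in 2 of 14 and 2 of 9. The 4 SOD1 libraries averaged 20.9 points above WT-Veh (exact permutation p = 0.133, n = 4 and 2). Without thinning the difference was 2.92 points, and the SOD1 and WT-Veh libraries overlapped. The paired difference from other B-lineage cells was 8.25 points (exact sign-flip permutation p = 0.125, n = 6), and 12.05 points without thinning (p = 0.0312 by the same exact test, the smallest it can give). When both sets came from the B-led clusters it was 12.8 points (exact p = 0.156), with the Vpreb3+ share above the other in 5 of 6 libraries.

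Gene levels were compared between the 3 groups in 1 edgeR fit of the 6 sums of Vpreb3+ cells, which held 25720 and 45424 UMIs in SOD1-Nec, 27397 and 37615 in SOD1-Veh, and 16217 and 11265 in WT-Veh, over 498 tested genes. Sod1 was looked at first, since it checks the genotype labels. It had 64 and 141 UMIs in SOD1-Nec, 49 and 152 in SOD1-Veh, and 4 and 2 in WT-Veh, or 2521 and 3178 CPM, 1824 and 4384 CPM, and 233 and 164 CPM in the same order. The groups with the mutant genotype did not overlap WT-Veh, and SOD1-Veh was higher by 3.92 on the log2 scale (SE 0.54, edgeR adjusted p = 7.9e-05). Sod1 was also far higher in free RNA, taken as barcodes under 100 genes: 0.521% and 0.592% of UMIs in SOD1-Nec, 0.324% and 0.423% in SOD1-Veh, and 0.0098% and 0.0079% in WT-Veh.

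In SOD1-Veh against WT-Veh, 8 genes or 1.61% were higher and none was lower, with 58 genes at an unadjusted p under 0.05. Beside Sod1 and 4 haemoglobin genes, these were Top2a, Hmgb2 and Hmgn2, each from another list: 1 of 6 tested cell division genes, 1 of 2 of V(D)J recombination and 1 of 15 chromatin proteins. Top2a, the enzyme that untangles DNA in division, stood at 2085 and 981 CPM in SOD1-Veh and 233 and 410 CPM in WT-Veh (log2 2.27, SE 0.56, edgeR adjusted p = 0.036). Hmgb2, a chromatin protein, stood at 6775 and 5105 CPM in SOD1-Veh and 2676 and 1640 CPM in WT-Veh (log2 1.43, SE 0.36, edgeR adjusted p = 0.036). Hmgn2, a nucleosome-binding protein, stood at 1080 and 1385 CPM in SOD1-Veh and 175 and 410 CPM in WT-Veh (log2 2.15, SE 0.54, edgeR adjusted p = 0.036). Within the B-led clusters the log2 differences of these 3 genes were 2.32, 1.49 and 2.19. The counts were small: Top2a had 56 and 34 UMIs in SOD1-Veh and 4 and 5 in WT-Veh. With either WT-Veh library left out no gene passed, against 26 and 24 genes without SOD1-Veh 1 or 2 and 5 and 4 without SOD1-Nec 1 or 2.

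The wider lists were mostly below the threshold. Of 32 cell division genes, 6 were tested. Of these 6, 5 had a positive difference and Top2a alone passed, with a list median of 1.77 against 0.03 over all genes. Over all 498 tested genes, 256 had a positive difference. The WT-Veh sums were the smallest, and genes could enter the test through the SOD1 sums in which they were high. Counts and medians over the lists are therefore descriptions of the tested genes. Mki67 stood at 1563 and 548 CPM in SOD1-Veh and 291 and 492 CPM in WT-Veh (log2 1.44, SE 0.58, edgeR adjusted p = 0.30), and Ube2c, which tags proteins for removal in mitosis, had 16 and 17 UMIs in SOD1-Veh and 0 and 1 in WT-Veh (edgeR adjusted p = 0.065). Of 15 chromatin proteins 12 were positive (median 1.21), and of 24 oxidative phosphorylation genes 22 were positive (median 0.64) with none passing. Of 8 B-lineage transcription factors, 1 was positive and none passed (median -0.70). Il7r differed by -0.54 (SE 0.55, edgeR adjusted p = 0.72) and Igkc by -0.32 (SE 0.29, adjusted p = 0.69).

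The other 4 genes that rose in SOD1-Veh were the haemoglobin genes Hba-a1, Hba-a2, Hbb-bs and Hbb-bt, markers of red cells. Hba-a1 stood at 7296 and 21114 CPM in SOD1-Veh and 989 and 984 CPM in WT-Veh, a log2 difference of 3.85 (SE 0.57, edgeR adjusted p = 0.00013) that was 2.52 within the B-led clusters. Hbb-bt differed by 3.25 (SE 0.62) over all cells and by 1.18 (SE 0.49, edgeR adjusted p = 0.32) within the B-led clusters. The erythroid list as a whole took 3.28% and 7.15% of the UMIs of these cells in SOD1-Nec, 2.78% and 7.51% in SOD1-Veh, and 0.697% and 0.462% in WT-Veh, with 0 to 6 of its 10 genes at 0 in a library. Within the B-led clusters it took 3.45% and 3.47%, 2.89% and 1.38%, and 0.697% and 0.462% in the same order. In SOD1-Veh 2 the B-led clusters left out 1 of 35 cells. Without that cell the sum went from 37615 to 33623 UMIs and the erythroid share from 7.51% to 1.38%. Most erythroid UMIs of the Vpreb3+ cells of SOD1-Veh 2 thus came from that 1 barcode. In free RNA it took 69.1% and 78.1% in SOD1-Nec, 36.5% and 30.2% in SOD1-Veh, and 55.3% and 51.7% in WT-Veh, so the order of the groups there was not that of the Vpreb3+ cells. The part of red cells or free RNA in this difference was not tested.

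In SOD1-Nec against SOD1-Veh, 1 gene or 0.201% passed, with 53 genes at an unadjusted p under 0.05. The count moved widely with the settings. With the replicate number as a block 11 genes passed, with at least 2 UMIs on each side 5, in the B-led clusters 5, in the Vpreb3-led cluster 5 and with no filter on low counts 18. The last set included skeletal muscle genes lower in SOD1-Nec, such as Acta1 (log2 -7.56), Myl1 (-7.58), Tnnt3 (-8.16) and Ckm (-6.66). Without SOD1-Veh 2, Acta1 differed by -8.52 and Tnnt3 by -9.09. Of the 207 cells, 1 lay in a cluster led by Myl1 and Acta1. Leaving out barcodes with at least 5 muscle UMIs left 26 of the 27 cells of SOD1-Veh 1 and all cells of the other libraries. No gene passed with DESeq2, at a limit of 10% mitochondrial UMIs or with a SOD1-Nec or WT-Veh library left out, and 23 and 17 genes passed without SOD1-Veh 1 or 2. Haemoglobin genes changed direction with the choice of cells. The log2 difference of Hbb-bt was 0.36 (SE 0.46, edgeR adjusted p = 0.84) over all cells, -3.59 (SE 0.61, adjusted p = 0.0027) with at least 2 UMIs on each side and 1.87 (SE 0.35, adjusted p = 0.0036) in the B-led clusters.

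The genes of dividing cells and of B-cell identity did not pass in the main fit of SOD1-Nec against SOD1-Veh, though some did under other settings. Top2a stood at 1182 and 563 CPM in SOD1-Nec and 2085 and 981 CPM in SOD1-Veh, which overlap (log2 -0.85, SE 0.41, edgeR adjusted p = 0.45). Hmgn2 stood at 591 and 406 CPM in SOD1-Nec and 1080 and 1385 CPM in SOD1-Veh, with a log2 difference of -1.34. Of 6 tested cell division genes none had a positive difference (median -0.90), and of 15 tested chromatin proteins 4 did (median -0.62). Over all 498 tested genes, 236 did. Of 8 B-lineage transcription factors, 7 were positive and none passed (median 0.59, against -0.03 over all genes). Pax5 stood at 1970 and 1262 CPM in SOD1-Nec and 931 and 433 CPM in SOD1-Veh (log2 1.25, SE 0.41, edgeR adjusted p = 0.16), and Sox4 at 1457 and 1240 CPM and 1005 and 231 CPM (log2 1.17, SE 0.45, edgeR adjusted p = 0.21). Pax5 passed with the replicate number as a block (log2 1.26, edgeR adjusted p = 0.036), and without SOD1-Veh 1 both Pax5 (1.91, adjusted p = 0.0019) and Sox4 (2.57, adjusted p = 0.00032) passed. This contrast and that of SOD1-Veh with WT-Veh share the SOD1-Veh libraries.

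**Figure D5:**
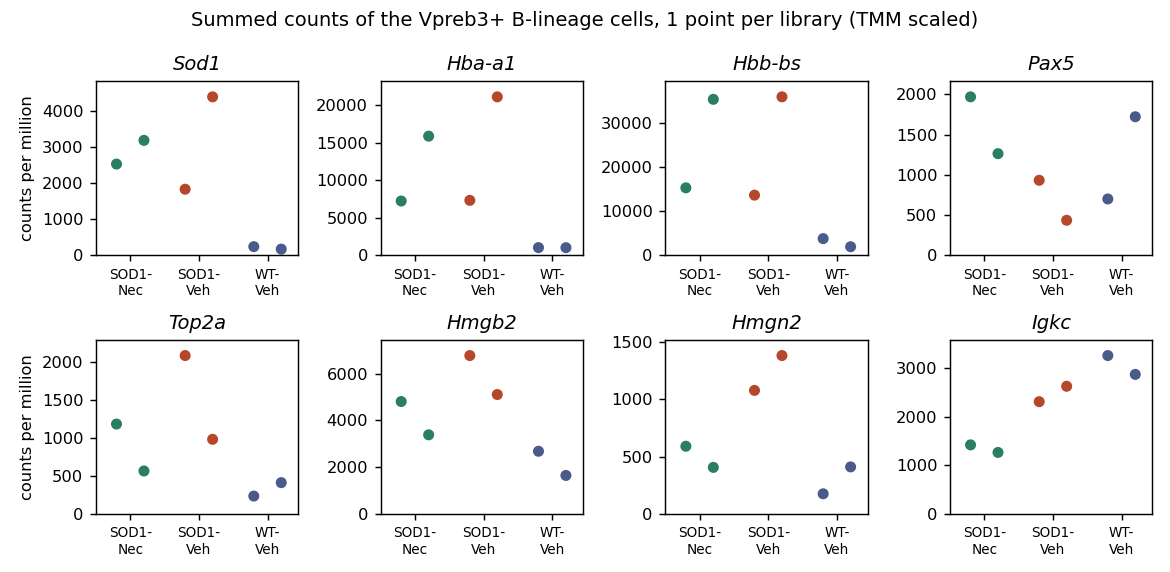
Level of 8 genes in the summed counts of Vpreb3+ B-lineage cells (vertical axes, CPM, TMM scaled), 1 point per library, with SOD1-Nec left, SOD1-Veh in the middle and WT-Veh right. Sod1 and the haemoglobin genes are low in both WT-Veh libraries, and Igkc is low in both SOD1-Nec libraries.

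In SOD1-Nec against WT-Veh, 7 genes or 1.41% passed, 6 higher (1.2%) and 1 lower (0.201%), with 40 at an unadjusted p under 0.05. The higher genes included Sod1 (log2 3.79, SE 0.54) and the 4 haemoglobin genes. The lower gene was Igkc, the constant region of the kappa light chain that replaces the surrogate one. It stood at 1418 and 1262 CPM in SOD1-Nec and 3257 and 2870 CPM in WT-Veh (log2 -1.20, SE 0.31, edgeR adjusted p = 0.045). Within the B-led clusters the difference was -1.13 with an adjusted p of 0.076. The share of Vpreb3+ cells with an Igkc UMI after thinning was 47.6% and 37.5% in SOD1-Nec, 47.8% and 60.9% in SOD1-Veh, and 57.1% and 77.8% in WT-Veh. No gene passed without SOD1-Nec 2, WT-Veh 1 or WT-Veh 2, nor with at least 2 UMIs on each side of the rule, where Hba-a2, Hbb-bs and Hbb-bt differed by -0.81, -0.76 and -0.15. Iglc2 differed by 1.24 (SE 0.55, edgeR adjusted p = 0.58). Ripk1, the gene of the kinase that Necrostatin-1s inhibits, had 2 UMIs in all 207 cells and was not tested.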

How the data were processed

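The data were UMI counts per gene and barcode, deposited by the authors as 1 table of raw counts per library, for 6 Drop-seq libraries. The genome build was mm9 per the submitters' processing notes; an aligner was not given in the sources used here, nor was an annotation. The 17042 genes in all tables were used. The cells, gene lists (506 symbols, 9 unmatched) and tests were chosen with earlier results of these data known. Barcodes were clustered in scanpy 1.11.5 (Leiden, leidenalg 0.10.2) without the 8 rule genes. Counts summed per library were tested with edgeR 4.0.16 in R 4.3.3 (TMM, filterByExpr, quasi-likelihood F test, Benjamini-Hochberg over all tested genes, threshold 0.05), after tests on simulated data. DESeq2 1.42.0 was an alternative. Named genes were called genes with the largest change among those whose libraries did not overlap, the 4 smallest p per direction where few passed, and list members with the smallest p. Shares were thinned to 500 UMIs where stated. Intervals and limits of 0 (3 counts) cover counting error only. Tables of the same replicate number list the same genes, but the labels do not say what a number shares and same-numbered libraries did not deviate together in every pair of groups, so the main fits have no replicate block. A called gene of the Necrostatin-1s comparisons is not reported here.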

Additional observations from a re-analysis of the deposited data

Results flagged for a closer look

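The gene rule was also applied to barcodes that the filters left out, and those above the level in the WT-Veh libraries are given here as values. Among barcodes with over 20% mitochondrial UMIs, 1.80% (4 of 222; exact 95% interval 0.493 to 4.55%) and 2.14% (4 of 187; 0.586 to 5.39%) of those in the SOD1-Nec libraries met it. It was met by 0 of 276 and 0 of 218 in SOD1-Veh and by 0 of 235 and 0 of 256 in WT-Veh, which allow shares of up to 1.09%, 1.38%, 1.28% and 1.17%. Among barcodes with at least 100 but under 200 genes, the rule was met by 1.08% (9 of 837) and 1.09% (8 of 734) in SOD1-Nec, by 0.357% (1 of 280) and 2.64% (6 of 227) in SOD1-Veh, and by 0.193% (1 of 519) and 0 of 567 in WT-Veh, the last of which allows up to 0.529%.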

How the results depend on the processing

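Counts of called genes were small and moved with the settings; the cause was not tested. In SOD1-Veh against WT-Veh 8 genes passed, against 5 at a limit of 10% mitochondrial UMIs, 3 in the Vpreb3-led cluster alone (added after seeing the data), 21 with no filter on low counts and 3 with DESeq2. Leaving out 1 library gave 0 to 26: 0 without WT-Veh 1 or WT-Veh 2 (57 and 63 genes at an unadjusted p under 0.05), 26 and 24 without SOD1-Veh 1 or 2, and 5 and 4 without SOD1-Nec 1 or 2. In SOD1-Nec against SOD1-Veh 1 gene passed, against 5 with at least 2 UMIs on each side of the rule, 5 in the B-led clusters, 5 in the Vpreb3-led cluster, 18 with no filter (skeletal muscle genes among them), and 0 at 10% mitochondrial UMIs (41 unadjusted) and with DESeq2 (44 unadjusted). Leaving out 1 library gave 0 to 23, with 23 and 17 without SOD1-Veh 1 or 2 and 0 without any of the other 4 (42 to 70 unadjusted). In SOD1-Nec against WT-Veh 7 passed, against 0 with at least 2 UMIs (24 unadjusted), 3 at 10% mitochondrial UMIs, 3 with DESeq2, and 0 to 8 with 1 library left out, 0 without SOD1-Nec 2, WT-Veh 1 or WT-Veh 2 (35, 51 and 50 unadjusted). Between Vpreb3+ and other B-lineage cells 157 passed, against 33 in the B-led clusters, 49 where the others had at least 2 B-lineage UMIs, 510 with no filter, 287 with DESeq2 and 138 to 159 with 1 library left out.

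The replicate block gave 11, 11 and 7 calls in SOD1-Veh against WT-Veh, SOD1-Nec against SOD1-Veh and SOD1-Nec against WT-Veh. Over 498 genes, libraries of the same number deviated from their group means with correlations of 0.15 (SOD1-Nec with SOD1-Veh), -0.15 (SOD1-Veh with WT-Veh) and -0.18 (SOD1-Nec with WT-Veh), so the numbers were not taken to pair libraries.

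Directions turned as follows. With at least 2 UMIs on each side, the SOD1-Nec against WT-Veh log2 differences were -0.81 for Hba-a2, -0.76 for Hbb-bs and -0.15 for Hbb-bt. Against other B-lineage cells, Ly6d was -0.090 in the B-led clusters, and Igkc was -1.21 there, -0.33 against others with at least 2 UMIs and -0.40 without the library block. The share among retained barcodes in SOD1-Nec less SOD1-Veh was -0.21 points, but -1.91 with at least 2 UMIs, 0.75 at 400 genes, 0.91 at 10% mitochondrial UMIs and -1.34 to 0.92 with 1 library left out. The share among B-lineage barcodes turned in the B-led clusters (added after seeing the data): -4.03 for SOD1-Veh and -4.74 for SOD1-Nec against WT-Veh, -4.38 for all SOD1 libraries. For SOD1-Nec less SOD1-Veh it was 0.44, but -0.71 there, -2.10 thinned, -7.98 with at least 2 UMIs and -2.54 to 3.42 with 1 library left out. The cell division share in SOD1-Nec less SOD1-Veh was 8.79 points, but -1.70 thinned to 300 UMIs, -15.1 with DNA replication genes and -4.78 to 22.4 with 1 library left out. The excess over other B-lineage cells was 12.05 points without thinning (exact permutation p = 0.0312, the smallest 6 libraries allow) and 12.8 in the B-led clusters (exact p = 0.156; added after seeing the data). Of single-gene values, 469 of 536 under other settings and 293 of 354 with 1 library left out kept their direction and their side of the threshold. A median of 593 UMIs per cell limits what the absence of a gene in a cell can show.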
